A study of Mus musculus with 18 samples.

Results

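The comparison described here is that of epididymal fat between mice on a high-salt diet (HSD) and mice on a control diet (CON), in 6 of the 18 libraries of the series. The labels call the tissue white adipose tissue (WAT), and the study's methods name it as the epididymal depot (eWAT). Genes with a mean of at least 0.5 FPKM over the 6 libraries were kept, which left 13740 of the 21899 genes listed. FPKM is the number of sequenced fragments of a gene, scaled by the length of the gene and the total of the library. The CON libraries were CON16W, CON71W and CON72W, and the HSD libraries were HS2W, HS3W and HS5W. All 6 mice were C57BL/6, wild type, male and 18 weeks old. HSD mice had 8% NaCl in the chow and 0.9% saline to drink for 12 weeks, and CON mice had normal chow and tap water. By the study's methods, the mice were bought at 6 weeks of age and habituated for 1 week before the diets. Each library came from 1 mouse by its name, and no label ties the mice to cages, litters or days, so p-values measure the spread between these libraries. Salt came in by food and water together, and the 2 routes cannot be told apart. The library HS3W held transcripts of the epididymis and the seminal vesicle, so each result was computed over all 6 libraries and again without HS3W, with 3 CON and 2 HSD libraries.

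White fat stores energy as triglyceride in adipocytes. An adipocyte takes fatty acids up from the blood, or makes them from glucose by de novo lipogenesis, in which citrate leaves the mitochondrion, is split to acetyl-CoA, and is carboxylated, condensed to palmitate with NADPH as the reductant, then elongated and desaturated. Insulin drives these genes through the transcription factors SREBP1 and ChREBP. Lipolysis releases the stored fatty acids again. A fat depot also holds macrophages, fibroblasts, endothelial cells and mesothelium, and the epididymal depot lies against the epididymis.

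The libraries held between 12299223 fragments in HS3W and 16637489 in CON72W, as totals recovered from the deposited FPKM. The summed FPKM of 14 adipocyte markers, Adipoq and Plin1 among them, was between 26713 and 26723 in the CON libraries, 29979 in HS2W, 32262 in HS5W and 10104 in HS3W. The tissue label therefore held in all 6 libraries, at a lower level in HS3W. Without HS3W, 5 of the 14 lay above every CON library (26.2% of all genes) and 5 below (20.5%). Cfd was the largest member. Scaled to the same sum, it stood at 9582, 8365 and 8474 in CON and at 11470, 10680 and 11470 in HSD. Car3, the next largest, stood at 6724, 7645 and 7459 in CON and at 4932, 5435 and 5351 in HSD. The scaling to this sum used below thus rests largely on these genes. The 28 epididymis markers in the file summed to 31279 FPKM in HS3W and to between 1.19 and 17.2 elsewhere, and the 7 seminal vesicle markers to 23919 in HS3W and at most 1.40 elsewhere. The 551 genes at 1 FPKM or more in HS3W and over 10 times the highest other fat library held 12.39% of its fragments. Genes of male germ cells summed to 739 FPKM in HS2W, 363 in HS3W and 53.6 in HS5W, against 8.38 to 74.3 in the CON libraries. The hepatocyte list held 31 markers and was summed without Cyp2e1, which fat itself expresses. That sum came to 505, 728 and 320 FPKM in the CON libraries and to 95.5, 71.1 and 93.2 in the HSD libraries. Apoc1 held most of the HSD sum. Without Apoc1 as well, the sum was 391.8, 628.9 and 223.5 FPKM in CON and 29.8, 14.9 and 17.4 in HSD. Genes whose mean FPKM in the CON livers was over 10 times that in the CON fat are called liver-marked below. Red blood cell markers summed to 5667 FPKM in CON16W and to between 243 and 744 in the others. In bulk tissue, fewer cells of a type and less RNA per cell cannot be told apart.

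**Figure D1:**
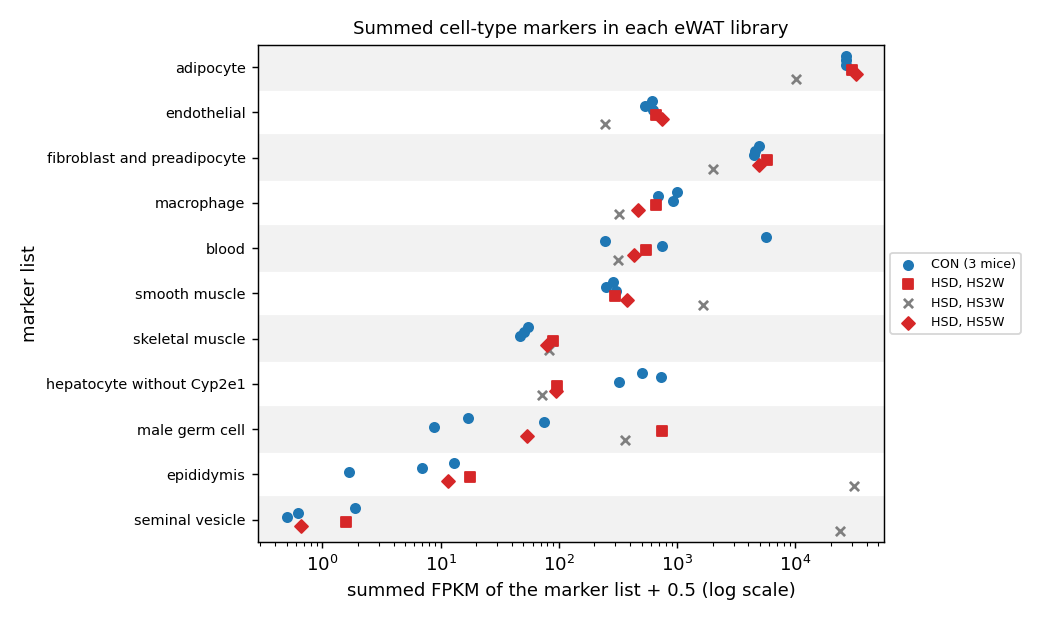
Summed FPKM of marker lists in each of the 6 fat libraries, on a log axis, with 1 point per library. HS3W stands apart with 31279 FPKM of epididymis markers and 10104 FPKM of adipocyte markers, and the hepatocyte sum without Cyp2e1 is lower in the 3 HSD libraries, at 71.1 to 95.5, than in the 3 CON libraries, at 320 to 728.

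A gene was a DEG if limma gave it a p under 0.05 after Benjamini-Hochberg adjustment and if its log2 fold change was 1 or more in size. Fold changes are of FPKM + 0.5, so those of weakly expressed genes come out too small. Over all 6 libraries, limma called 0 of 13740 genes (0%), with a smallest adjusted p of 0.083, while 2298 genes (16.7%) had an unadjusted p under 0.05, 1261 of them higher in HSD (9.18%) and 1037 lower (7.55%). Over the same 6 libraries, limma voom on recovered fragments also called 0, limma with weights per library called 220, and a fit of all 3 tissues together called 214. Without HS3W, limma called 160 of 13245 genes (1.21%), 29 higher in HSD (0.219%) and 131 lower (0.989%). Of these 160, 159 had the same sign over all 6 libraries, and for 135 the 3 HSD values lay beyond all 3 CON values. All of these libraries but HS3W had chosen the genes, so both counts were in part set in advance. The count without HS3W was 120 when CON16W was also left out, 0 without CON71W and 18 without CON72W. Leaving out HS2W or HS5W as well leaves 1 HSD library, so no count is given. In the 3 fits without a CON library, 157 to 160 of the 160 genes kept an unadjusted p under 0.05 in limma. Over all genes, 2879 to 3359 had such a p. The 160 were chosen in the same libraries, so most were bound to keep it. The number of calls thus depends on which libraries are present, and fold changes are given with the values of every library below. Without HS3W, 3674 genes (27.7%) had an unadjusted p under 0.05, 2017 of them higher (15.2%) and 1657 lower (12.5%). By adjusted p alone, 486 genes were higher (3.67%) and 498 lower (3.76%).

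Among 12977 genes without the liver mark, 97 (0.747%) were DEGs without HS3W, 25 higher (0.193%) and 72 lower (0.555%). Among 268 liver-marked genes, 63 (23.5%) were DEGs, 4 higher (1.49%) and 59 lower (22%). HS3W had no part in that fit, but the same 3 CON libraries chose the genes, so the following shares are a description and the share over all genes is not what no change would give. HS3W lay below every CON library for 64 of the 72 unmarked genes that fell (88.89%), against 37.05% of all unmarked genes. It lay above every CON library for 13 of the 25 that rose (52%), against 47.65% of all unmarked genes, a share near the background. When each library was scaled to the same adipocyte marker sum, HS3W lay below every CON library for 37 of the 72 genes that fell (51.39%), against 3.198% of all unmarked genes.

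Genes of fatty acid synthesis were lower in HSD at the deposited FPKM, and Fasn had the largest fall of the 72 unmarked genes. Of 14 members tested, 6 fell (0.989% of all genes) and 0 rose (0.219%) without HS3W. Their median log2 fold change was -1.04, against 0.04 over all genes tested. Fasn, the synthase that makes palmitate, went from a mean of 531 FPKM in CON to 66.3 in HS2W and HS5W. Acly, which splits citrate to acetyl-CoA, and Acaca, which carboxylates acetyl-CoA to malonyl-CoA, fell too, and so did Acss2, which makes acetyl-CoA from acetate, the desaturase Scd2 and the elongase Elovl6. In HS2W and HS5W, 9 of the 14 genes lay below every CON library (20.5% of all genes), and 6 did so over all 6 libraries (12.4%). Over all 6 libraries the median was -1.26 and 0 of the 14 were DEGs. Scaled to the adipocyte marker sum, 10 lay below and 1 above every CON library in HS2W and HS5W (share over all genes not computed). HS3W then lay below every CON library for 5 (3.881% of all genes) and above for 8 (91.48%). For HS3W the direction thus depends on the scaling.

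The Fasn gene lies on the minus strand of chromosome 11, from 120805846 to 120824547 (mouse build GRCm38, GENCODE annotation). Acly is on the minus strand of the same chromosome, from 100476353 to 100528000, and Acaca on its plus strand, from 84129672 to 84401651. The 250 bases before the start of the first 2 are shown because both genes fell by a log2 of over 1 and the windows differ in the motifs they hold. The sequences are RefSeq's, of build GRCm38.p6, at chr11:120824548-120824797 for Fasn and chr11:100528001-100528250 for Acly, both given 5′ to 3′ on the minus strand. Capitals mark matches, on either strand, to the CCAAT box (CCAAT) or the GC box (GGGCGG).
Fasn: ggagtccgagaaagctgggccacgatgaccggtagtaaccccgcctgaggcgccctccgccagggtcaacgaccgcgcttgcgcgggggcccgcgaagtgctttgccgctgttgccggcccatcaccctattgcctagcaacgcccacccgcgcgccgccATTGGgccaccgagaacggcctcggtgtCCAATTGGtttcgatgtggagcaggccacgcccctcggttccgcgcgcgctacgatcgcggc
Acly: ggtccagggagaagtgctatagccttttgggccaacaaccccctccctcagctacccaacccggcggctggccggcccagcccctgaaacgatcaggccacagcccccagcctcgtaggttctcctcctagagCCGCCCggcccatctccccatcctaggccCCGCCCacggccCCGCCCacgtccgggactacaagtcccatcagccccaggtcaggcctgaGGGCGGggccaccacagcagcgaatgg
The Fasn window held 3 matches to the CCAAT box, of which 2 overlap, and 0 to the GC box. The Acly window held 4 matches to the GC box and 0 to the CCAAT box. Neither window held the E-box CACGTG or the sterol element TCACNCCAC. Of 32851 promoter windows of the same length, 33.8% held the CCAAT box, 32.7% the GC box, 6.02% the E-box and 1.05% the sterol element. A match describes the letters alone and shows no binding.

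Fasn stood at 324, 597 and 673 FPKM in CON16W, CON71W and CON72W, and at 47.2, 46.5 and 85.5 FPKM in HS2W, HS3W and HS5W. Every HSD library was below every CON library, and HS3W was as low as HS2W. The log2 fold change was -2.98 ± 0.38 (SE) without HS3W (limma, adjusted p = 0.0227) and -3.13 ± 0.37 over all 6 (adjusted p = 0.0884). Acaca was at 43.3, 52.0 and 63.1 FPKM in CON and at 16.2, 9.69 and 21.4 in HSD, with no overlap, and its log2 fold change was -1.46 ± 0.19 without HS3W (limma, adjusted p = 0.0228). Acss2 was at 8.39, 11.3 and 12.5 FPKM in CON and at 3.38, 3.26 and 5.16 in HSD. Its groups did not overlap either at the deposited FPKM, and its log2 fold change was -1.24 ± 0.22 (limma, adjusted p = 0.0344). Scaled to the adipocyte marker sum, Acss2 in HS3W was at 7.72, within the CON range of 7.51 to 11.2.

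For the 3 other genes of the group that fell, HS3W went with CON or above it. Acly stood at 91.9, 160 and 201 FPKM in CON and at 35.6, 134 and 39.7 in HSD, with HS3W inside the CON range. Scd2 stood at 62.3, 88.5 and 94.5 FPKM in CON, at 11.7 in HS2W and 14.4 in HS5W, and at 178 in HS3W. Elovl6 stood at 5.63, 8.26 and 9.86 FPKM in CON, at 1.86 in HS2W and 2.25 in HS5W, and at 32.6 in HS3W. For Scd2 and Elovl6, HS3W was the highest of the 6 libraries. Their log2 fold changes without HS3W were -1.92 ± 0.32 for Acly, -2.59 ± 0.20 for Scd2 and -1.69 ± 0.23 for Elovl6 (limma, adjusted p = 0.031, 0.0212 and 0.0243). Over all 6 libraries they were -1.31, -1.35 and -0.46 (adjusted p = 0.323, 0.514 and 0.815). The part of the epididymal and seminal vesicle RNA in the HS3W values was not tested.

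The other 8 members were not DEGs. Scd1, the main desaturase of fat, stood at 4393, 4507 and 4864 FPKM in CON and at 2257, 1131 and 2757 in HSD, without overlap. Its log2 fold change of -0.88 ± 0.14 had an adjusted p of 0.03 without HS3W (limma) but was under 1 in size. The same held for Slc25a1, the mitochondrial citrate carrier, at -0.96 ± 0.14 (limma, adjusted p = 0.0249). Thrsp, the lipogenic protein Spot14, stood at 360, 497 and 731 FPKM in CON and at 194, 62.9 and 278 in HSD, and missed the threshold at -1.13 ± 0.31 (limma, adjusted p = 0.0843). Acacb, the carboxylase of the mitochondrial membrane, went the other way, with 19.8, 15.1 and 17.3 FPKM in CON, 31.9 in HS2W, 29.9 in HS5W and 13.1 in HS3W. Its log2 fold change without HS3W was 0.82 ± 0.12 (limma, adjusted p = 0.0267), and over all 6 it was 0.42 (adjusted p = 0.536). The desaturases Fads1 and Fads2, the elongase Elovl5 and the transacylase Mcat had log2 fold changes without HS3W between -0.10 and 0.24, and HS3W was far above CON for Fads1, at 88.9 FPKM, and Fads2, at 217.

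**Figure D2:**
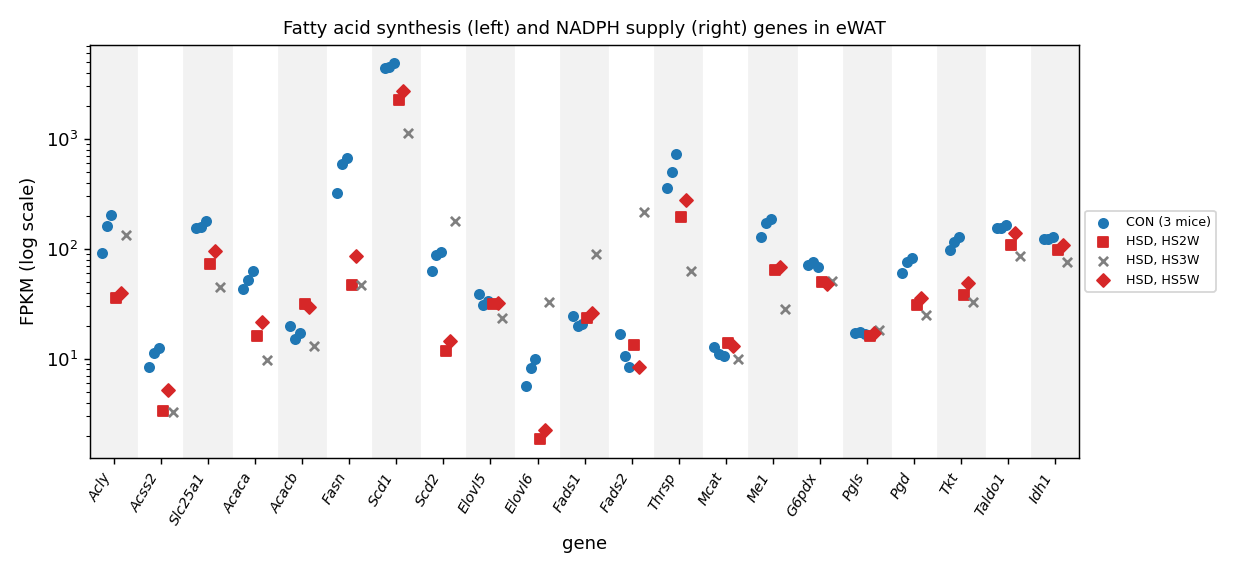
FPKM of lipogenic genes in each fat library, on a log axis, with CON and HSD libraries side by side and HS3W marked. Fasn and Acaca are lower in all 3 HSD libraries, while for Scd2 and Elovl6 the HS3W point, at 178 and 32.6 FPKM, lies above the CON points.

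Genes that supply NADPH were lower in HSD at the deposited FPKM. Of 7 members, 3 fell without HS3W (0.989% of all genes) and 6 lay below every CON library over all 6 (12.4%). Scaled to the adipocyte marker sum, all 7 lay below CON in HS2W and HS5W (share over all genes not computed). HS3W then lay below every CON library for 2 (3.881% of all genes) and above for 4 (91.48%). The direction in HS3W thus depends on the scaling. Me1, the malic enzyme, stood at 127, 174 and 186 FPKM in CON and at 64.8, 28.1 and 69.0 in HSD. Tkt, the transketolase of the pentose phosphate pathway, stood at 98.3, 115 and 128 FPKM in CON and at 38.2, 33.2 and 49.4 in HSD. Pgd, the 6-phosphogluconate dehydrogenase of the same pathway, stood at 59.9, 76.5 and 83.1 FPKM in CON and at 31.0, 24.97 and 35.5 in HSD. In all 3 genes the groups were apart. Log2 fold changes without HS3W were -1.25 ± 0.17 for Me1, -1.37 ± 0.15 for Tkt and -1.11 ± 0.15 for Pgd (limma, adjusted p = 0.0243, 0.0227 and 0.0244), and over all 6 they were -1.67, -1.498 and -1.25 (adjusted p = 0.153, 0.0905 and 0.114). G6pdx, the first enzyme of the pathway, had a smaller difference, with 69.1 to 76.1 FPKM in CON and 47.7 to 51.0 in HSD (log2 fold change -0.55 ± 0.07, limma, adjusted p = 0.0243).

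Regulators of lipogenesis held no DEG. Of 10 regulators, 0 were DEGs by limma with or without HS3W, and 4 without and 2 with HS3W had an unadjusted p under 0.05. Without HS3W, 5 of the 10 lay below every CON library (20.5% of all genes). Scaled to the adipocyte marker sum, 7 did so (share over all genes not computed). Also without HS3W, 2 had an adjusted p under 0.05 in limma at lower values in HSD. Srebf1, which encodes SREBP1, stood at 75.4, 78.8 and 94.2 FPKM in CON and at 79.4, 67.1 and 82.0 in HSD, with overlapping groups and a log2 fold change of -0.03 ± 0.11 without HS3W (limma, adjusted p = 0.884). Mlxipl, which encodes ChREBP, stood at 21.2, 25.04 and 30.9 FPKM in CON and at 27.1, 15.3 and 31.8 in HSD, also overlapping. Insig1, which retains SREBP in the endoplasmic reticulum and is itself an SREBP target, stood at 52.3 to 66.8 FPKM in CON and at 33.9 to 37.5 in HSD, at -0.76 ± 0.12 (limma, adjusted p = 0.0304).

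Cholesterol synthesis showed smaller differences in many members. Of 20 genes tested, 2 fell without HS3W, Nsdhl among them (0.989% of all genes), and 15 lay below every CON library (20.5%), with a median log2 fold change of -0.59. Over all 6 libraries 6 lay below every CON library (12.4% of all genes). HS3W was above every CON library for 12 of the 20 (47.38% of all genes). Nsdhl, a sterol dehydrogenase, was at 14.4, 17.5 and 15.6 FPKM in CON, at 7.04 in HS2W and 7.63 in HS5W, and at 28.6 in HS3W, and fell only without HS3W, by 1.05 ± 0.10 on the log2 scale (limma, adjusted p = 0.0212). Mvk, the mevalonate kinase, and Idi1, which isomerises the isoprenoid unit, had log2 fold changes of -0.82 and -0.84 without HS3W.

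Triglyceride assembly had 1 DEG of 16 without HS3W, Mogat2, a monoacylglycerol acyltransferase, which fell (0.989% of all genes). It stood at 2.31, 7.69 and 6.26 FPKM in CON and at 0.359, 0.620 and 0.416 in HSD, without overlap, from 68 to 214 fragments in CON and 9 to 14 in HSD. Its log2 fold change was -2.60 ± 0.45 without HS3W (limma, adjusted p = 0.033) and -2.49 over all 6 (adjusted p = 0.116). Dgat2, which joins the last acyl chain, stood at 566, 837 and 1050 FPKM in CON and at 203, 88.6 and 379 in HSD. The groups were apart, but the log2 fold change of -1.51 ± 0.35 missed the threshold (limma, adjusted p = 0.0569). The median of the 16 was 0.03 without HS3W, against 0.04 over all genes.

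Lipolysis and fatty acid oxidation held 0 DEGs of 19 and of 25 by limma, with 9 genes of each list at an unadjusted p under 0.05 without HS3W. In HS2W and HS5W, 10 of the 19 lipolysis and lipid droplet genes lay above every CON library (26.2% of all genes), and 1 of the 19 did so over all 6 (16.2%). Scaled to the adipocyte marker sum, 4 lay above and 7 below every CON library in HS2W and HS5W (shares over all genes not computed). Their direction thus depends on the scaling. Pnpla2, the triglyceride lipase ATGL, stood at 657, 606 and 552 FPKM in CON, at 890 in HS2W and 803 in HS5W, and at 297 in HS3W. Adrb3, the adrenergic receptor that starts lipolysis in rodent fat, stood at 331, 324 and 355 FPKM in CON, at 475 and 519 in HS2W and HS5W, and at 205 in HS3W. The log2 fold changes without HS3W were 0.49 ± 0.11 for Pnpla2 and 0.56 ± 0.09 for Adrb3 (limma, adjusted p = 0.0563 and 0.0292), and with HS3W they were -0.02 and 0.14. The sum of adipocyte markers moved the same way among the HSD libraries, and its part in these values was not tested.

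Of 13 genes of fatty acid uptake, 1 fell without HS3W (0.989% of all genes). It was the liver-marked Fabp1, the fatty acid binding protein of liver, with 22.2, 20.6 and 13.0 FPKM in CON and 1.06, 0.588 and 1.11 in HSD. Its level in the CON livers was 279 times that in the CON fat, and the hepatocyte marker sum was lower in the same libraries. The fatty acid binding proteins of fat differed less. Fabp5 stood at 30.6, 36.7 and 37.7 FPKM in CON and at 17.9, 8.89 and 23.2 in HSD, without overlap, at -0.76 ± 0.14 (limma, adjusted p = 0.0387). Fabp4, the abundant one, averaged 2059 FPKM in CON and 2854 in HS2W and HS5W, at 0.47 ± 0.10 (limma, adjusted p = 0.051).

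**Figure D3:**
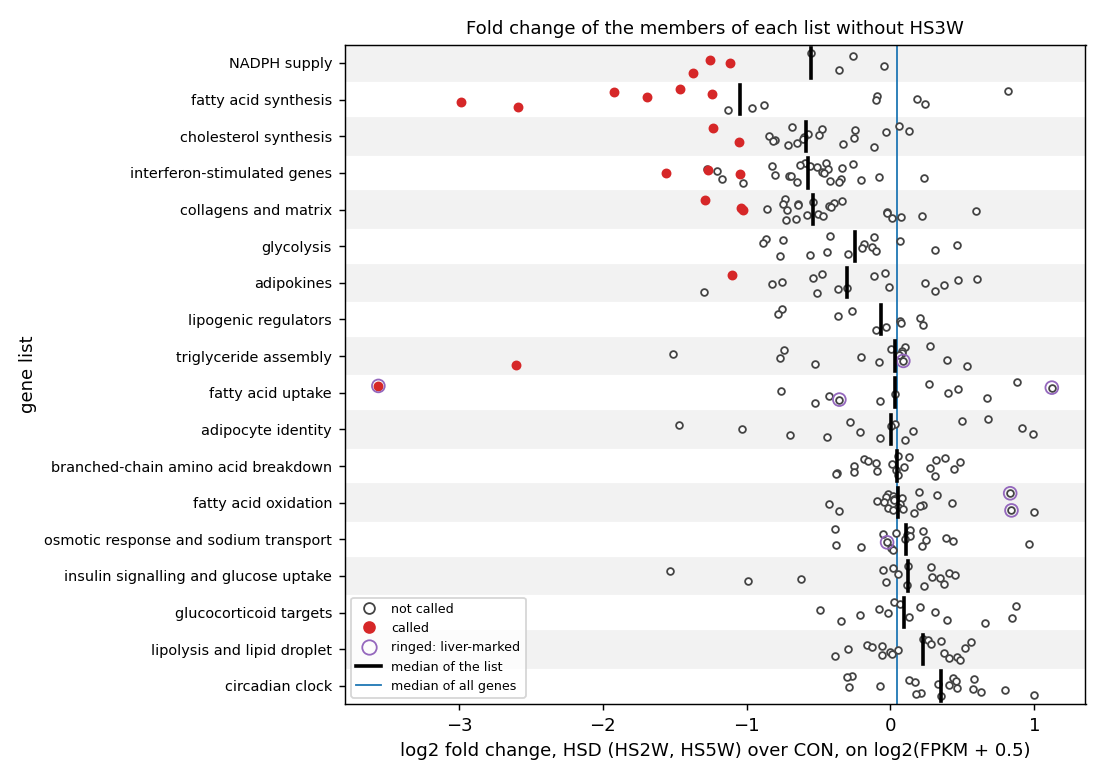
Log2 fold change of HSD over CON without HS3W for each tested gene of the lists, 1 row of points per list, on the log2(FPKM + 0.5) scale. Fatty acid synthesis has a median of -1.04, interferon-stimulated genes of -0.57 and collagens of -0.54, while the circadian clock list has a median of 0.35.

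Adipokines, the hormones of fat, held 1 DEG of 17 without HS3W, which fell (0.989% of all genes). Apln, which encodes the vasoactive peptide apelin, stood at 5.41, 6.56 and 7.39 FPKM in CON and at 2.40, 1.34 and 3.08 in HSD, with the groups apart and a log2 fold change of -1.10 ± 0.16 without HS3W (limma, adjusted p = 0.0255) and -1.37 over all 6 (adjusted p = 0.132). Lep, which encodes the satiety hormone leptin, stood at 304, 525 and 378 FPKM in CON and at 230, 80.1 and 213 in HSD, also apart, at -0.82 ± 0.22 (limma, adjusted p = 0.0807). Adipoq, which encodes the insulin-sensitising hormone adiponectin, stood at 2129, 1974 and 2041 FPKM in CON and at 1937, 692 and 2059 in HSD. HS5W was within the CON range and HS2W just below it, with a log2 fold change of -0.04 ± 0.10 (limma, adjusted p = 0.854). Igf1, a growth factor, was at 29.3 to 33.8 FPKM in CON and at 16.4, 8.37 and 20.3 in HSD, at -0.75 ± 0.11 (limma, adjusted p = 0.0275).

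Angptl2, an inflammatory angiopoietin-like protein, stood at 29.5, 30.8 and 29.6 FPKM in CON and at 18.9, 8.64 and 24.2 in HSD, below CON in all 3, at -0.48 ± 0.11 (limma, adjusted p = 0.0604). Lcn2, a lipocalin of inflammation, stood at 24.8, 11.4 and 5.16 FPKM in CON, at 16.0 in HS2W and 11.5 in HS5W, and at 577 in HS3W. Without HS3W its groups overlapped, with a log2 fold change of 0.24 ± 0.59. The high Lcn2 was thus found in the library with the epididymis and seminal vesicle transcripts, and the part of that RNA in it was not tested.

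Of 15 genes of adipocyte identity, 0 were DEGs by limma, with 8 at an unadjusted p under 0.05 without HS3W. Pparg, the master regulator of fat cells, averaged 114 FPKM in CON and 99.1 in HS2W and HS5W (log2 fold change -0.21 ± 0.13, limma, adjusted p = 0.339). Lgals12, a galectin of lipid droplets, was at 140, 130 and 137 FPKM in CON, at 263 in HS2W and 250 in HS5W, and at 89.6 in HS3W, with a log2 fold change of 0.91 ± 0.07 without HS3W (limma, adjusted p = 0.0212). Pnpla3, a lipase-like protein that SREBP1 and ChREBP induce, was at 217, 201 and 332 FPKM in CON and at 104, 38.7 and 137 in HSD, at -1.03 ± 0.24 (limma, adjusted p = 0.0588). Of 10 thermogenic genes, 6 passed the filter and 0 were DEGs, with 2 at an unadjusted p under 0.05 without HS3W, and Ucp1, the uncoupling protein of brown fat, was listed at 0 in all 6 libraries. Ppargc1a and Ppargc1b, coactivators of mitochondrial genes, averaged 1.29 and 1.46 FPKM in CON and 2.76 and 3.39 in HS2W and HS5W, at 0.86 and 0.99 on the log2 scale (limma, adjusted p = 0.031 and 0.0244), while HS3W was within the CON range for both.

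Interferon-stimulated genes, which cells switch on against viruses through STAT proteins, were lower in the HSD libraries. Of 28 tested, 3 fell without HS3W (0.989% of all genes). Below every CON library lay 20 without HS3W (20.5%) and 19 over all 6 (12.4%), with medians of -0.57 and -0.78. Isg15, a ubiquitin-like modifier, stood at 12.9, 17.0 and 19.3 FPKM in CON and at 3.96, 6.71 and 6.63 in HSD. Oas1a, a sensor that starts the decay of viral RNA, stood at 3.11, 4.72 and 4.85 FPKM in CON (94, 135 and 152 fragments) and at 1.52, 1.47 and 2.03 in HSD (39, 34 and 50 fragments). Ifit3, which binds viral RNA with its partners, stood at 14.9, 27.0 and 21.3 FPKM in CON and at 7.64, 5.45 and 8.85 in HSD. In all 3 genes the HSD libraries lay below the CON libraries. Reads of Ifit3 can be shared with its near copy Ifit3b, so its value is uncertain.

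The log2 fold changes without HS3W were -1.56 ± 0.25 for Isg15, -1.27 ± 0.24 for Ifit3 and -1.04 ± 0.21 for Oas1a (limma, adjusted p = 0.0292, 0.0388 and 0.044). Over all 6 libraries they were -1.45, -1.45 and -1.11 (adjusted p = 0.116, 0.124 and 0.125). Zbp1, a nucleic acid sensor, was at 2.14, 3.72 and 3.37 FPKM in CON and at 1.33, 0.668 and 1.13 in HSD, at -1.02 ± 0.23 (limma, adjusted p = 0.0519). Rsad2, which encodes the antiviral viperin, did not follow, with 9.16, 9.91 and 8.04 FPKM in CON, 9.23 in HS2W, 12.4 in HS5W and 2.44 in HS3W. HS3W lay below every CON library for 26 of the 28 genes (37.32% of all genes). Scaled to the adipocyte markers, HS3W lay below for 7 (3.881% of all genes) and above for 9 (91.48%). The macrophage marker sum was 995, 692 and 919 FPKM in CON and 659.5, 319.6 and 464 in HSD, and its part in the interferon-stimulated genes was not tested. Of the 16 macrophage markers, 0 were DEGs by limma, with 10 at an unadjusted p under 0.05 both with HS3W and without it. Without HS3W, 8 of the 16 lay below every CON library (20.5% of all genes). Scaled to the adipocyte marker sum, 12 did so in HS2W and HS5W (share over all genes not computed). HS3W then lay below every CON library for 0 of the 16 (3.881% of all genes) and above for 8 (91.48%).

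**Figure D4:**
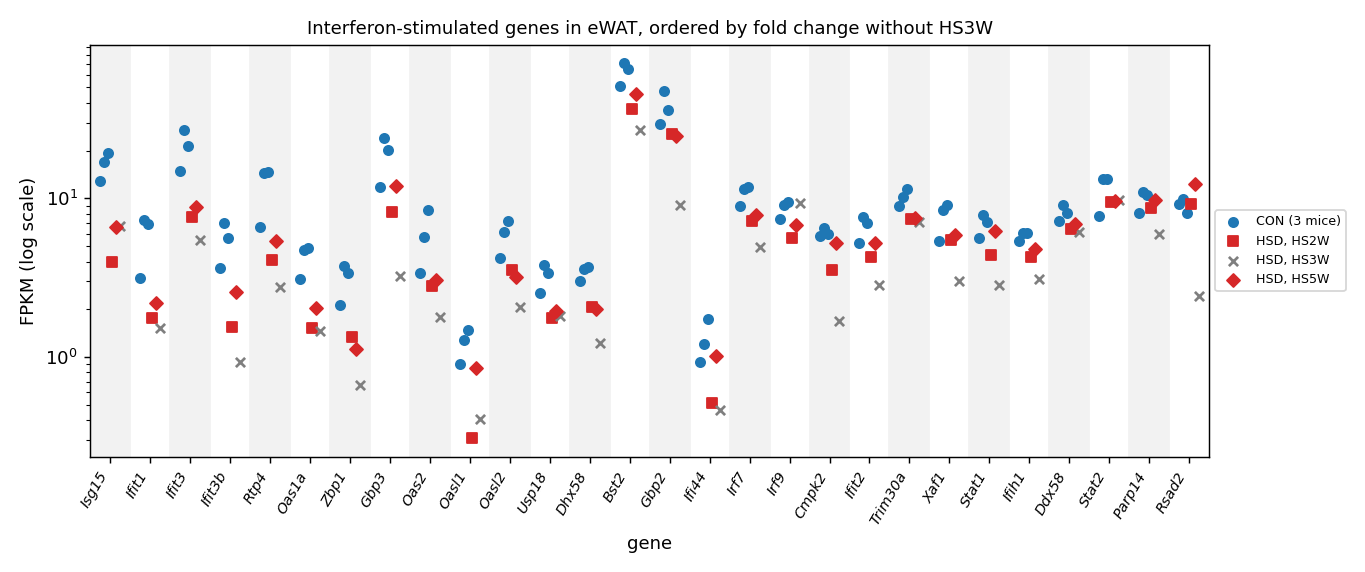
FPKM of interferon-stimulated genes in each fat library, on a log axis. Isg15 is at 12.9 to 19.3 FPKM in the 3 CON libraries and at 3.96 to 6.71 in the 3 HSD libraries, and HS3W is the lowest library for many of the genes.

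Many collagens and other matrix genes had lower values in HSD. Of 25 tested, 3 fell without HS3W (0.989% of all genes), 15 lay below every CON library (20.5%) and 2 above (26.2%). With HS3W included, 14 lay below (12.4% of all genes), and the medians were -0.54 without HS3W and -0.84 with it. Scaled to the adipocyte marker sum, HS3W lay below every CON library for 12 (3.881% of all genes) and above for 7 (91.48%). Col15a1, a collagen of basement membrane zones, stood at 76.2, 117 and 114 FPKM in CON and at 40.2, 17.4 and 41.4 in HSD. Col6a2, a chain of the collagen VI that surrounds adipocytes, stood at 43.5, 53.9 and 50.03 FPKM in CON and at 24.8, 12.1 and 22.8 in HSD. Col5a3, a chain of collagen V, stood at 64.9, 101 and 108 FPKM in CON and at 42.6, 19.4 and 43.9 in HSD. The groups were apart in all 3, with HS3W the lowest. Log2 fold changes without HS3W were -1.29 ± 0.19, -1.03 ± 0.11 and -1.04 ± 0.22 for Col15a1, Col6a2 and Col5a3 (limma, adjusted p = 0.0269, 0.0212 and 0.0483). Sparc, a matricellular protein, and Col4a1, of the basement membrane, had adjusted p of 0.0323 and 0.0243 (limma) at smaller log2 fold changes of -0.66 and -0.64. Of the 11 fibroblast and preadipocyte markers tested, 0 were DEGs by limma, with 2 at an unadjusted p under 0.05 without HS3W. Their sum was 4427 to 4888 FPKM in CON, 5708 in HS2W, 4954 in HS5W and 1993 in HS3W.

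Glycolysis, which feeds citrate to lipogenesis, held 0 DEGs of 16 by limma. Without HS3W 11 of the 16 had an unadjusted p under 0.05, and 10 lay below every CON library without HS3W (20.5% of all genes) and with it (12.4%). Scaled to the adipocyte marker sum, 13 lay below CON in HS2W and HS5W (share over all genes not computed). HS3W, however, then lay below every CON library for 1 (3.881% of all genes) and above for 14 (91.48%). Eno1, the enolase, stood at 111, 109 and 113 FPKM in CON and at 60.3, 52.7 and 61.3 in HSD, with a narrow spread in both groups. Its log2 fold change was -0.87 ± 0.06 without HS3W (limma, adjusted p = 0.0212) and -0.93 ± 0.10 over all 6 (adjusted p = 0.083). The lactate dehydrogenase Ldha and the glycolytic enzymes Tpi1, Gapdh and Pkm had log2 fold changes of -0.89, -0.77, -0.74 and -0.56 without HS3W, each with an adjusted p under 0.05 in limma. Gapdh is the parent of many pseudogenes, so its value is uncertain.

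In the list of insulin signalling and glucose uptake, 0 of 16 genes were DEGs by limma, with 6 at an unadjusted p under 0.05 without HS3W. Pik3r1, the regulatory subunit of phosphoinositide 3-kinase, was just short of the fold threshold, at 45.6, 50.4 and 42.8 FPKM in CON and at 23.7, 22.1 and 22.3 in HSD. The groups did not overlap, though HS3W lay above every CON library when scaled to the adipocyte marker sum, with a log2 fold change of -0.99 ± 0.09 without HS3W (limma, adjusted p = 0.0212) and -1.01 ± 0.10 over all 6 (adjusted p = 0.083). Insr, the insulin receptor, was at 13.0, 13.9 and 12.5 FPKM in CON and at 19.6, 13.8 and 16.8 in HSD, at 0.45 ± 0.09 without HS3W (limma, adjusted p = 0.0474). Of 20 genes of branched-chain amino acid breakdown, 0 were DEGs by limma, with 8 at an unadjusted p under 0.05 without HS3W and a median of 0.05.

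Genes of the circadian clock lay above CON in HS2W and HS5W for 13 of 19 (26.2% of all genes), and for 7 of 19 over all 6 (16.2%), while 0 of 19 were DEGs by limma and 10 had an unadjusted p under 0.05 without HS3W. Scaled to the adipocyte marker sum, 7 of 19 lay above and 3 below every CON library in HS2W and HS5W (shares over all genes not computed). Nr1d2, a repressor of the clock, was at 20.1 to 23.4 FPKM in CON and 29.3 to 33.8 in HSD, at 0.58 ± 0.10 (limma, adjusted p = 0.0326). Per2, of the negative limb of the clock, was at 7.10, 7.67 and 7.26 FPKM in CON, at 13.0 in HS2W and 10.3 in HS5W, and at 6.82 in HS3W. The labels and methods used here give no time of day of sampling for each mouse.

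For glucocorticoid targets 0 of 14 were DEGs by limma, with 8 at an unadjusted p under 0.05 without HS3W, and for genes of the osmotic response and sodium transport 0 of 18, with 5 at that p. Sgk1, a kinase that glucocorticoids and mineralocorticoids induce and that activates sodium transport, stood at 17.6, 14.8 and 17.9 FPKM in CON and at 31.2, 20.5 and 29.6 in HSD. All HSD libraries lay above CON, at 0.84 ± 0.10 without HS3W (limma, adjusted p = 0.0227) and 0.66 over all 6 (adjusted p = 0.198). Nfat5, the transcription factor of the response to high tonicity, stood at 7.08, 6.64 and 7.04 FPKM in CON and at 9.25, 14.2 and 9.12 in HSD, also above CON, at 0.38 ± 0.07 (limma, adjusted p = 0.0404). Its targets went in both directions. Slc5a3, the inositol transporter, was at 10.9, 12.0 and 9.71 FPKM in CON and at 15.9, 16.7 and 13.8 in HSD, at 0.44 ± 0.12 (limma, adjusted p = 0.0764). Akr1b3, the aldose reductase that makes sorbitol, was at 13.8, 13.8 and 14.2 FPKM in CON and at 10.7, 8.74 and 10.48 in HSD, at -0.38 ± 0.07 (limma, adjusted p = 0.033).

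Of 18 genes of the unfolded protein response, 0 were DEGs by limma, with 5 at an unadjusted p under 0.05 without HS3W. Atf4, a transcription factor of that response, was at 46.5, 51.7 and 50.5 FPKM in CON and at 67.5, 70.0 and 67.5 in HSD, at 0.44 ± 0.07 (limma, adjusted p = 0.0321). The groups were apart, with HS3W the highest. Of 12 cell cycle genes tested without HS3W, 0 were DEGs by limma, with 2 at an unadjusted p under 0.05.

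Outside these lists, the largest falls among unmarked genes held 2 histone genes. H1f4, a linker histone, stood at 4.59, 4.58 and 4.95 FPKM in CON (142, 134 and 159 fragments) and at 1.06, 1.39 and 0.950 in HSD (28, 33 and 24 fragments), with a log2 fold change of -1.79 ± 0.11 without HS3W (limma, adjusted p = 0.0212) and -1.68 over all 6 (adjusted p = 0.083). H1f2, another linker histone that also fell and is named because of H1f4, stood at 89.9, 94.8 and 91.4 FPKM in CON and at 37.1, 42.6 and 46.0 in HSD. H3c15, a core histone, stood at 3.36, 5.56 and 4.48 FPKM in CON and at 0.359, 2.47 and 0.824 in HSD, from 5 to 31 fragments in HSD. In all 3 histone genes every HSD library was below every CON library. Histone genes are near copies of each other, so how reads were shared among them is uncertain. Most of their messages lack a poly(A) tail, and the libraries were of total RNA.

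The other large falls were single genes. Mtarc1, a mitochondrial reductase of amidoximes, stood at 8.27, 17.8 and 14.5 FPKM in CON and at 1.99, 0.796 and 2.08 in HSD, at -2.40 ± 0.30 (limma, adjusted p = 0.0227). The mean level of Mtarc1 in the CON livers was 85.5 FPKM, which is higher than in fat but does not reach the liver mark. Wfdc21 stood at 23.4, 30.6 and 28.4 FPKM in CON and at 6.92, 3.75 and 4.05 in HSD, at -2.26 ± 0.22 (limma, adjusted p = 0.0212). Tuba1a, an alpha-tubulin, stood at 169, 352 and 314 FPKM in CON and at 68.2, 44.7 and 70.1 in HSD, at -1.93 ± 0.31 (limma, adjusted p = 0.0304), and can share reads with other alpha-tubulins. Fgf13, an intracellular relative of the fibroblast growth factors, stood at 3.41, 9.05 and 5.64 FPKM in CON and at 1.42, 0.910 and 0.932 in HSD, at -1.88 ± 0.37 (limma, adjusted p = 0.0418). In each of these genes the groups did not overlap.

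The largest rises without HS3W were Capn11, Thbs2, Unc93a2, Peg3, 4921507P07Rik, Acsm3, Rbp7, Chdh, Depp1 and Lgals4. Thbs2, a matricellular thrombospondin, stood at 9.05, 6.57 and 7.53 FPKM in CON and at 56.4, 11.8 and 23.9 in HSD. All HSD libraries lay above CON, with HS2W over 2 times HS5W, and the log2 fold change was 2.19 ± 0.35 without HS3W (limma, adjusted p = 0.0304) and 1.66 over all 6 (adjusted p = 0.234). Peg3, an imprinted zinc finger gene expressed from the paternal allele, stood at 6.97, 5.91 and 5.56 FPKM in CON and at 29.0, 12.1 and 16.1 in HSD, at 1.74 ± 0.24 (limma, adjusted p = 0.0249). Chdh, which oxidises choline toward betaine, stood at 13.4, 10.2 and 7.96 FPKM in CON and at 30.4, 22.1 and 23.8 in HSD, at 1.35 ± 0.22 (limma, adjusted p = 0.031). Lgals4, a galectin, stood at 12.2, 10.1 and 11.6 FPKM in CON and at 31.0, 15.9 and 25.1 in HSD, at 1.27 ± 0.12 (limma, adjusted p = 0.0212). Peg3, Chdh and Lgals4 did not overlap between the groups, HS3W included.

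For Rbp7, Depp1 and Acsm3, HS3W lay within or below CON. Rbp7, a retinol-binding protein of fat endothelium, stood at 34.4, 20.4 and 26.6 FPKM in CON, at 88.7 in HS2W and 70.8 in HS5W, and at 28.8 in HS3W. Depp1, a FOXO target, stood at 54.0, 40.5 and 45.0 FPKM in CON, at 106 in HS2W and 121 in HS5W, and at 21.1 in HS3W. Acsm3, a medium-chain acyl-CoA synthetase, stood at 3.22, 2.15 and 2.29 FPKM in CON, at 7.23 in HS2W and 9.86 in HS5W, and at 2.70 in HS3W. Their log2 fold changes without HS3W were 1.56 ± 0.22, 1.28 ± 0.14 and 1.57 ± 0.20 for Rbp7, Depp1 and Acsm3 (limma, adjusted p = 0.0252, 0.0212 and 0.0227), and over all 6 they were 1.08, 0.49 and 1.07 (adjusted p = 0.304, 0.697 and 0.304). Unc93a2 stood at 1.48, 0.851 and 0.837 FPKM in CON and at 4.11, 1.63 and 5.84 in HSD, at 1.82 ± 0.24, and 4921507P07Rik at 0.997, 0.860 and 0.758 in CON and 5.55, 3.04 and 2.60 in HSD, at 1.66 ± 0.29 (limma, adjusted p = 0.0243 and 0.0342). Capn11, a calpain of the testis, was seen as 0, 2 and 0 fragments in CON and as 84, 10 and 60 in HS2W, HS3W and HS5W, which is 2.27, 0.300 and 1.69 FPKM. In these last 3 genes HS3W lay above every CON library and below HS2W. Of the 16 male germ cell markers tested, 0 were DEGs by limma without HS3W and 5 had an unadjusted p under 0.05. The sum of the germ cell list was 739 FPKM in HS2W, 363 in HS3W and 53.6 in HS5W. In CON16W, CON71W and CON72W it was 16.7, 74.3 and 8.38 FPKM. The part of germ cell RNA in the Capn11 value was not tested.

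**Figure D5:**
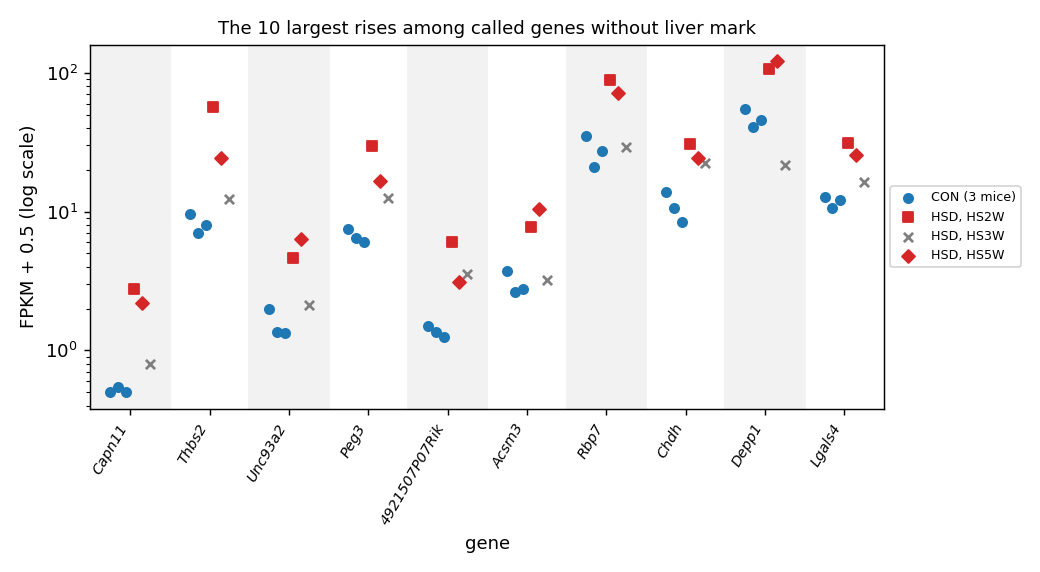
FPKM of genes that rose without HS3W, in each fat library on a log axis. Thbs2 reaches 56.4 FPKM in HS2W and 23.9 in HS5W against 6.57 to 9.05 in CON, and HS3W lies among the CON points for Rbp7 and Acsm3.

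Among genes whose groups did not overlap over all 6 libraries, the 5 with the smallest p in each direction are given here, and a small p also selects for a narrow spread. Slc38a2, an amino acid transporter that responds to tonicity and amino acid shortage, stood at 13.4, 12.2 and 14.6 FPKM in CON and at 24.7, 27.4 and 25.2 in HSD, at 0.92 ± 0.10 (limma, adjusted p = 0.083). The other 4 on the higher side, Prpf40b and Pcf11 of pre-mRNA processing, the zinc finger Zkscan3 and the deubiquitinase Usp48, had log2 fold changes of 0.68, 0.65, 0.86 and 0.61 over all 6. On the lower side stood Fabp1, H1f4 and Pik3r1, given above, the liver-marked Mup20, and Matn2, an adaptor protein of the matrix. Matn2 stood at 17.1, 17.9 and 16.2 FPKM in CON and at 7.66, 6.80 and 7.64 in HSD. Each group was within a narrow range, and the log2 fold change was -1.16 ± 0.09 over all 6 (limma, adjusted p = 0.083) and -1.10 ± 0.07 without HS3W (adjusted p = 0.0212). With adjusted p of 0.083 or 0.0905, none of these 10 genes passed the threshold over all 6 libraries.

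The liver-marked genes that fell held many products of hepatocytes. The 59 held 10 major urinary protein genes and 23 of the hepatocyte markers, with log2 fold changes between -4.61 and -1.11 and a median of -2.35. Alb, the albumin of plasma, stood at 108, 167 and 53.9 FPKM in CON and at 7.85, 3.30 and 5.87 in HSD, at -3.77 ± 0.45 without HS3W (limma, adjusted p = 0.0227). Apoa2, an apolipoprotein of HDL, stood at 37.5, 76.6 and 31.1 FPKM in CON and at 3.96, 1.97 and 0.996 in HSD, at -4.13 ± 0.55 (limma, adjusted p = 0.0243). Mup20, a major urinary protein, stood at 26.7, 39.3 and 19.9 FPKM in CON and at 1.89, 0.438 and 0.576 in HSD. The groups were apart in all 3, and the order within CON, CON71W highest and CON72W lowest, was the same in all 3 and in the summed hepatocyte markers. Mup genes are near copies of each other, so the share of each is uncertain. Whether these transcripts came from liver RNA in the CON libraries was not tested. Cyp2e1, which both liver and fat express, went the other way, with 1402, 942 and 990 FPKM in CON, 2131 in HS2W, 2567 in HS5W and 664 in HS3W, and rose without HS3W by 1.10 ± 0.20 on the log2 scale (limma, adjusted p = 0.0372).

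The 4 liver-marked genes that rose were skeletal muscle genes. In the list of 18 skeletal muscle markers, 15 carried the liver mark. The mark is a ratio of levels in the CON livers and the CON fat and does not show that liver cells make the gene. The source of these muscle transcripts in the CON livers was not tested. Acta1, the actin of skeletal muscle, stood at 11.4, 6.57 and 5.79 FPKM in CON and at 26.5, 33.5 and 17.7 in HSD, and the sum of 18 skeletal muscle markers was 46.7 to 54.5 FPKM in CON and 78.4 to 88.1 in HSD. Tnnt3, Tcap and Pvalb, a troponin, a protein of the sarcomere and a calcium buffer of fast fibres, rose with it by 1.57, 1.36 and 1.25 on the log2 scale. They were low in counts, with 8 to 36 fragments for Tcap and 6 to 29 for Pvalb in the fat libraries. The mean level of Pvalb in the CON muscle was 7825 FPKM. Of the 13 tested muscle markers, 9 lay above every CON library over all 6 (16.2% of all genes). The part of muscle RNA in these values was not tested.

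HS3W alone was high for secreted proteins of the male tract. The genes with the highest FPKM there, over 10 times any other fat library, were Svs5 at 10320, Gpx5 at 6610, Lcn8 at 5972, Svs4 at 5525, Crisp1 at 5109, Svs2 at 4513 and Akr1b7 at 3669, followed by Lcn9, Cstdc2 and Defb48. Svs genes encode proteins of the seminal vesicle, and Gpx5, Crisp1 and the lipocalins are made by the epididymal epithelium. In the other 5 fat libraries Svs5 was at most 0.676 FPKM and Gpx5 at most 0.613. Of the 551 genes high in HS3W, 442 were tested over all 6 libraries and 0 were DEGs by limma, as were 0 of all 13740 genes. They were chosen for 1 extreme library, which widens the spread within HSD. The count of 0 was thus in part set in advance and says nothing about these genes. The unadjusted count over all genes and the counts of the other fits stand above.

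Muscle from the same 6 mice allowed the diet effect in fat to be set against that in quadriceps within each mouse. For 13152 genes, limma called 0 differences of at least 1 on the log2 scale (0%), with 1699 (12.9%) at an unadjusted p under 0.05 and a smallest adjusted p of 0.245. Without the mouse HS3 it called 0 of 12720 (0%), with 2158 (17%) at that p. For Fasn the effect in fat was 2.21 ± 0.34 lower on the log2 scale than that in muscle (limma, adjusted p = 0.245). Against liver, whose libraries came only in part from the same mice, limma called 1 of 13252 genes (0.00755%), with 1157 (8.73%) at an unadjusted p under 0.05. Leaving out 1 of the 12 libraries gave 0 calls in 8 cases, 1 call in 3 cases and 58 calls without the liver of HSD replicate 3. Without HS3W, 1 of 12740 genes (0.00785%) was called, with 1180 (9.26%) at an unadjusted p under 0.05, and that gene was Acacb. Its effect in fat lay 3.52 ± 0.31 above that in liver without HS3W (limma, adjusted p = 0.0063) and 3.12 ± 0.45 above it with HS3W (adjusted p = 0.0558), since Acacb stood at 6.38, 6.49 and 5.10 FPKM in the CON livers and at 0.319, 0.390 and 0.838 in the HSD livers. Acacb is named here because it was the only call without HS3W. With 3 or fewer libraries a group, a difference in diet effect was not detectable for the other genes, nor for any gene between fat and muscle.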

How the data were processed

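RNA of 18 libraries from liver, fat and muscle had been extracted with TRIzol and made into stranded total RNA libraries. Per the labels and the study's methods, the authors trimmed reads with cutadapt (version 1.9.3), aligned them to mm10 with hisat2 (version 2.0.4) and computed FPKM per gene with cuffdiff, and the deposited values are FPKM. The submitters' processing notes also name HTSeq (version 0.9.1) and the build mm9, with no role. Whether counting used strand is not given in the sources used here, so overlapping antisense genes cannot be told apart. HS5W is not listed in the study's sequencing quality table.

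FPKM were read as deposited. The fat libraries went into a model of diet alone in limma (version 3.58.1, under R 4.3.3), as log2 of FPKM plus 0.5. Genes had to average 0.5 FPKM or more, the variance followed a trend with the mean, and two-sided p-values were adjusted by Benjamini-Hochberg. An exact permutation test of 3 against 3 libraries cannot go below p = 0.1, so none was used. The fat and muscle values of a mouse were compared as differences, and fat and liver in 1 model with the mouse as a random block. Whole fragments were recovered from the FPKM with exon lengths of GENCODE M21. At a tolerance of 0.02, all 18 libraries had whole numbers for 18334 of the 18822 genes with a value above 0. These fragments gave the library totals, and voom ran on them. DESeq2, which the authors used, was not run. The scripts were tested on simulated data.

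The genes, lists and tests were chosen with earlier results of these data known. Named genes were the 10 largest rises and falls without HS3W and without the liver mark, the 5 smallest p in each direction over all 6 libraries without overlap, the genes the study names for fat, list members by role, and the 10 highest of the genes in HS3W that were over 10 times any other fat library. Other values came from Python 3.11.15 with pandas 2.3.3. Alternatives were quantile normalization, median-ratio scaling, 0.1 or 1 as the pseudocount, a higher filter (mean of 1 FPKM) or none, weights per library, no variance trend, voom, all tissues in 1 fit, liver-marked genes left out, a liver mark of 5 times, adjusted p alone, the replicate number as a block and each library left out. Scaling to the adipocyte markers was added after the data were seen. Some genes that passed a test are not reported here.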

Additional observations from a re-analysis of the deposited data

Results flagged for a closer look

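Acacb differed between fat and liver without HS3W, at a difference of 3.52 ± 0.31 on the log2 scale (limma, Benjamini-Hochberg adjusted p = 0.0063), with HS2W and HS5W above CON in fat and the 3 HSD libraries below CON in liver. Its difference was between 2.62 and 3.52 over 18 settings, with an adjusted p between 0.0063 and 0.195.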

How the results depend on the processing

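Over all 6 libraries, limma called 0 genes as reported, 220 with weights per library, 214 with all 3 tissues in 1 fit and 0 to 160 with 1 library left out. Without HS3W it called 160, and 73 without a filter, 0 without a variance trend (3501 at an unadjusted p under 0.05), 102 by voom on recovered fragments, 97 with liver-marked genes left out, 984 by adjusted p alone, 253 with scaling to the adipocyte markers (chosen after the data were seen) and 0 to 120 with 1 more library left out. Of the 160, 72 were shared with voom and 146 with the adipocyte scaling. The share of higher calls was 18.1% of the 160, 41.2% by voom and 7.91% with that scaling, under which all genes tested had a median log2 fold change of -0.151 in place of 0.0426. The scaling also took the count of unmarked falls with HS3W below every CON library from 64 to 37. The difference between fat and liver was called for 1 gene as reported, 0 with a pseudocount of 1, 5 at a mean FPKM of at least 1, 0 with median-ratio scaling, 0 without the mouse block and 0 to 58 with 1 library left out. The other settings kept the direction of each count and its size within 1.5 times. Results of 3 against 2 libraries rest on the spread of 5 libraries, the cause of the moves was not tested, and low FPKM limits genes under about 10 fragments.

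Same-numbered fat libraries correlated at -0.197, 0.0608 and 0.414 in their deviations from the group means. Libraries with different numbers correlated at -0.269 to 0.224. So few values cannot show whether the replicate numbers in the labels pair the libraries. A replicate block in the model gave 119 calls without HS3W, 93 of them among the 160, and 0 over all 6, 0 for fat minus muscle and 0 for fat minus liver.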
